A study of Mus musculus with 2 samples.

Results

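Shallow nuclei were barcodes selected on values measured in the files: barcodes that the authors' pipeline called as cells, that had more than 20% of their fragments in peaks, and that had at most 1000 fragments in peaks. They numbered 869 of the 6979 called barcodes of the sham library (12.5%, 95% exact binomial interval 11.7% to 13.2%) and 675 of 8740 in the stroke library (7.72%, 7.17% to 8.30%). Of the barcodes above 20%, they made up 12.7% (11.96% to 13.6%) of 6817 in sham and 13.4% (12.4% to 14.3%) of 5054 in stroke, and the remaining 5948 sham and 4379 stroke barcodes, with more than 1000 fragments in peaks, are called deep nuclei here. Single-nucleus chromatin accessibility was measured by scATAC-seq in wild-type C57BL/6J male mice (8 to 12 weeks of age by the study's methods) 48 h after surgery. In stroke mice the middle cerebral artery was occluded for 1 h with a filament and then reperfused, and in sham mice the filament was inserted without lasting occlusion. Nuclei were extracted from flash-frozen brains without olfactory bulbs and cerebellum, pooled from 4 sham brains or from the ipsilateral hemispheres of 4 stroke brains. Whole sham brains therefore stood against injured hemispheres, and with 1 library per condition no difference between sham and stroke was tested. Shallow and deep nuclei were compared within each library, nuclei are not replicates, and every interval below covers counting error only.

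In scATAC-seq, Tn5 transposase inserts adapters where DNA is exposed, so a fragment marks DNA that was reachable in 1 nucleus. Closed chromatin yields few fragments, and genes of a cell's own type usually yield more than genes of other types. Brain nuclei fall into excitatory glutamatergic neurons, inhibitory GABAergic neurons, spiny projection neurons of the striatum, and glia. Blood vessels and meninges add endothelial cells, mural cells and vascular leptomeningeal cells (VLMCs, the fibroblast-like cells of the brain coverings). Filters on fragments in peaks remove barcodes with little signal whatever their cell type, and the barcodes described here are those that such a filter takes out after the cell call.

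The 6 sequences here come from windows that held a larger share of cut sites in shallow than in deep nuclei of both libraries. They are 300-base windows of mm10, read on the plus strand from RefSeq's GRCm38.p6 genome, and their values are given with the comparison of windows at the end. The Gm10800, Pak3 and Chl1 windows are named for the nearest gene, and their capitals mark a 12-base run shared by 6 windows. The Zbtb7b, Stk3 and Clic4 windows lie within 500 bases of a gene's start, and their capitals mark the GC box GGGCGG on either strand.
Gm10800 window, chr2:98666101-98666400: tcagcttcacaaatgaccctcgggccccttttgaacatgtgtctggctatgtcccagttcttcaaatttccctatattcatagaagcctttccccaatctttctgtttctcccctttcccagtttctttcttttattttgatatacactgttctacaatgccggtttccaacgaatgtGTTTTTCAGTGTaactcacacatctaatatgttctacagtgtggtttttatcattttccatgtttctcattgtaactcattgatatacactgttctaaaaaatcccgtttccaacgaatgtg
Pak3 window, chrX:143482801-143483100: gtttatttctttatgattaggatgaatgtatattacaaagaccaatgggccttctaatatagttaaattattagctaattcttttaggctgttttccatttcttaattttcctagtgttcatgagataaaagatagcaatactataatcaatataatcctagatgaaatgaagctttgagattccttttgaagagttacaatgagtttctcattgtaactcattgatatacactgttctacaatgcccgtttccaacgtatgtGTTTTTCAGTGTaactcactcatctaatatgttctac
Chl1 window, chr6:103649101-103649400: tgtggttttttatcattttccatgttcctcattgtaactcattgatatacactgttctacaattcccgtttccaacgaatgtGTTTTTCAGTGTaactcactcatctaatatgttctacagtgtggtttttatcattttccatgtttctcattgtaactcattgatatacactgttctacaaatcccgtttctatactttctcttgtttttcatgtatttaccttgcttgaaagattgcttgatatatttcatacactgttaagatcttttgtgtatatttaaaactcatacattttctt
Zbtb7b window, chr3:89393701-89394000: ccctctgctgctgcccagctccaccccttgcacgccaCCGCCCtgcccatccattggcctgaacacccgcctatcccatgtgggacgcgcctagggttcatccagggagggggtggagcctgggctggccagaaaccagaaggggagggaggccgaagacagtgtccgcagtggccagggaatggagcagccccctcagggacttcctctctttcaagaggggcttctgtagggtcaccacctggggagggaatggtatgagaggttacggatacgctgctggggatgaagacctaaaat
Stk3 window, chr15:35155801-35156100: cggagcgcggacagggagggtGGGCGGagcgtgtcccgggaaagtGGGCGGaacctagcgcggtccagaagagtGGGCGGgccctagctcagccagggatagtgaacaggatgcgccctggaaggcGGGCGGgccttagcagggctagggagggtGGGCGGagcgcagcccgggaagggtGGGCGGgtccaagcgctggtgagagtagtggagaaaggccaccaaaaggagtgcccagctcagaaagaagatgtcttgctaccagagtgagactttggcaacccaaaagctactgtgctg
Clic4 window, chr4:135273001-135273300: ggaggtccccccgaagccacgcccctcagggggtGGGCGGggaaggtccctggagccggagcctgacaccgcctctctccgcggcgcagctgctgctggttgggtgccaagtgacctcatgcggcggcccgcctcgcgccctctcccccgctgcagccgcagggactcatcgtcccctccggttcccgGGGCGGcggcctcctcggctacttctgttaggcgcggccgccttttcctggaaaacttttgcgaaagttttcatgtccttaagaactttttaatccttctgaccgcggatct

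The rule used the cell call, the fragments in peaks and the share of fragments in peaks, so these values describe the selection only. Shallow nuclei had a median of 528 fragments in peaks in sham and 548 in stroke, against 4564.5 and 3871 in deep nuclei. The lowest shallow nucleus had 46 fragments in peaks in sham and 40 in stroke, and the highest barcode that was not called had 44 and 39. Within 100 fragments below the limit of 1000 there were 105 sham and 62 stroke nuclei, with medians of 33.7% and 33.2% of fragments in peaks. Within 100 fragments above it there were 77 sham and 66 stroke nuclei, with medians of 32.7% and 32.3%. At the other limit, 14 sham and 87 stroke nuclei lay between 20% and 22%, and 16 and 66 barcodes of the same depth lay between 18% and 20% and were left out. Of the 66 barcodes called in both libraries, 4 were shallow in sham, 1 of which was deep in stroke, and 7 were shallow in stroke, 6 of which were deep in sham.

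By measures that the rule did not use, shallow nuclei had cuts gathered at gene starts, as deep nuclei did, and a larger share of ambiguous reads than deep nuclei. Median TSS enrichment, the pile-up of cuts at gene starts over the flanks, was 5.94 in shallow and 5.61 in deep nuclei of sham, and 5.61 and 5.13 in stroke. From 5% to 95% of shallow nuclei it ran from 2.79 to 18.7 in sham and from 2.92 to 14.8 in stroke. Fragments too short to span a nucleosome made up a median of 74.3% against 71.2% in sham and 72.9% against 70.9% in stroke. Over pooled fragments the TSS enrichment of shallow nuclei was below that of deep nuclei in sham, 5.64 against 5.72, and above it in stroke, 5.48 against 5.26. Pooled uncalled barcodes were at 5.94 in sham and lower, at 4.37, in stroke. Read pairs with low mapping quality, which include those from repeats, made up a median of 6.06% in shallow and 4.41% in deep nuclei of sham, and 7.61% and 4.77% in stroke. The median mitochondrial share was lower in shallow nuclei in sham (0.199% against 0.275%), although its upper quartile was higher (0.768% against 0.546%), and the median was higher in stroke (0.338% against 0.172%). Each nucleus was also thinned to 1000 fragments, and its spread over autosomes was set against random sampling from the summed profile of all these nuclei. The median of this measure was 6.12 in 545 shallow and 4.32 in deep nuclei of sham, and 5.69 in 522 shallow and 3.67 in deep nuclei of stroke. In nuclei with over 1000 to 2000 fragments in peaks the same measure was 5.71 and 5.09, between shallow and all deep nuclei. Shallow nuclei thus lay farther from the summed autosome profile at equal depth in both libraries. That profile comes mostly from deep nuclei, so the measure cannot tell uneven coverage from a different class makeup.

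Pooled over nuclei, the shallow set gave 1268622 fragments in sham and 1221347 in stroke, 1.73% and 2.31% of the fragments of all nuclei above 20%. Gene accessibility was counted as fragments that overlapped a gene or its 2 kb upstream, scaled to all fragments of the pool (CPM). Genes were compared where the mean of both pools gave at least 20 fragments at the depth of the shallow pool. This was a mean of 15.8 CPM in sham and 16.4 CPM in stroke, so a gene below it in 1 pool entered through the other. In sham 12133 genes were compared, of which 121 were at least 2-fold higher in shallow nuclei (0.997% of those compared) and 55 at least 2-fold lower (0.453%). In stroke 11727 genes were compared, of which 76 were at least 2-fold higher (0.648%) and 129 at least 2-fold lower (1.1%). Over promoters alone 45 were higher and 15 lower in sham and 18 and 5 in stroke, and at equal fragments per nucleus 32 and 28 in sham and 40 and 58 in stroke. The median log2 ratio over compared genes was -0.01 in sham and -0.08 in stroke, and 5% to 95% of genes lay between -0.62 and 0.64 and between -0.71 and 0.55. Of the 11365 genes compared in both libraries, 13 were at least 2-fold higher in both, which is 13.3% of 98 such genes in sham and 37.1% of 35 in stroke. The lower genes overlapped less, with 3 in both, 5.88% of 51 in sham and 2.34% of 128 in stroke. Most genes past 2-fold in 1 library kept their direction in the other without passing it. Of the 98 genes higher in sham, 92 (93.9%) had a ratio above 1 in stroke, against 39.0% of all genes compared in both, and of the 35 higher in stroke, 33 (94.3%) did in sham, against 48.2%. Of the lower genes, 46 of 51 (90.2%, against 61.0%) and 110 of 128 (85.9%, against 51.8%) were below 1 in the other library. The minimum fixed part of these shares. A gene below it in deep nuclei of the other library could be compared there only with a ratio above 1. One below it in shallow nuclei could be compared only with a ratio below 1. The shares are therefore descriptive and do not measure how well the libraries agree. A difference between pools can come from fewer nuclei of a class or from less accessible chromatin per nucleus, and these cannot be told apart in pooled values.

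Single nuclei were therefore assigned to classes. Deep nuclei of both libraries were clustered, clusters were named from marker genes as X-like, and each shallow nucleus received the cluster whose profile made its fragments most likely. Deep nuclei held out of the profiles and thinned to the depths of shallow nuclei were assigned in the same way. Of these, 92.8% in sham and 89.6% in stroke returned to their class. Thinning matched depth only. Vomeronasal receptor genes, described below, were at 402 CPM in shallow and 209 CPM in deep nuclei of sham, and 624 and 355 CPM in stroke. The shares returned therefore do not give the error of assigning shallow nuclei, which was not tested. Nor were they counted by depth within the range of shallow nuclei. Of shallow nuclei, 94.1% in sham and 93.2% in stroke had a posterior of at least 0.9.

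Glutamatergic-like nuclei were far fewer among shallow nuclei. In sham they were 132 nuclei, 15.2% of shallow nuclei (12.9% to 17.8%) against 46.8% of thinned deep nuclei (45.0% to 48.6%). In stroke they were 64 nuclei, 9.48% (7.38% to 11.9%) against 40.2% (38.2% to 42.3%). Spiny-projection-like nuclei were also fewer, 4.72% (3.41% to 6.35%) against 10.5% in sham and 4.44% against 9.21% in stroke, where a minimum of 30% of fragments in peaks left 3 such nuclei, 0.980% against 8.23%. GABAergic-like nuclei made up a larger share, with 284 nuclei or 32.7% (29.6% to 35.9%) against 26.1% in sham and 225 nuclei or 33.3% (29.8% to 37.0%) against 18.8% in stroke. The share of neurons thus differed by neuron type, in the same direction in both libraries.

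A cluster led by Six2, Cldn11, Ptgds, Slc6a13 and Mal stood out more. Six2 is a transcription factor found in meningeal cells, Ptgds makes prostaglandin D2 in meninges and oligodendrocytes, and Cldn11 and Mal belong to myelin. Its scores for VLMC and oligodendrocyte markers, 1.31 and 1.25, were too close to name it, so it is called Six2-led. It took 191 shallow nuclei in sham, 21.98% (19.3% to 24.9%) against 2.58% (2.04% to 3.22%) of thinned deep nuclei. In stroke it took 179 shallow nuclei, 26.5% (23.2% to 30.02%) against 4.35% (3.53% to 5.29%). With components 2 to 30 in place of 2 to 10, there was a VLMC-like cluster, again led by Six2, and an oligodendrocyte-like cluster. The VLMC-like cluster then held 136 shallow nuclei in sham, 15.7% (13.3% to 18.2%) against 1.17%, and 133 in stroke, 19.7% (16.8% to 22.9%) against 2.57%. The oligodendrocyte-like cluster held 58, or 6.67% against 0.939%, and 62, or 9.19% against 3.02%. The VLMC-like cluster also scored 1.35 for endothelial markers, against 1.88 for VLMC markers, and no cluster was named endothelial-like. Both clusters took a larger share of shallow than of thinned deep nuclei in each library.

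Among glia, the intervals of shallow and thinned deep nuclei were apart for astrocyte-like and OPC-like nuclei of sham and, narrowly, for microglia-like nuclei of stroke. Astrocyte-like nuclei were 142 of the sham shallow nuclei, 16.3% (13.9% to 18.97%) against 6.81% (5.93% to 7.77%), but 65 in stroke, 9.63% (7.51% to 12.1%) against 12.6% (11.3% to 14.1%). Microglia-like nuclei were 18 in sham, 2.07% (1.23% to 3.25%) against 1.07% (0.735% to 1.51%), and 78 in stroke, 11.6% (9.24% to 14.2%) against 7.97% (6.87% to 9.19%). With a minimum of 30% of fragments in peaks, the microglia-like share was 1.39% against 1.03% in sham and 4.90% (2.77% to 7.96%) against 4.69% in stroke. At that minimum the microglia-like intervals of stroke were no longer apart. They also overlapped at a posterior of at least 0.9, 10.97% (8.64% to 13.7%) against 7.56% (6.46% to 8.80%), and with components 2 to 30, 6.96% (5.16% to 9.15%) against 6.46%. Oligodendrocyte-precursor-like (OPC-like) nuclei were 43, or 4.95% against 1.409%, and 23, or 3.41% against 2.15%. The OPC values are the least certain, since 58.3% and 50% of thinned deep OPC-like nuclei returned to the class. Other unnamed clusters took the remaining 18 and 11 shallow nuclei.

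**Figure D1:**
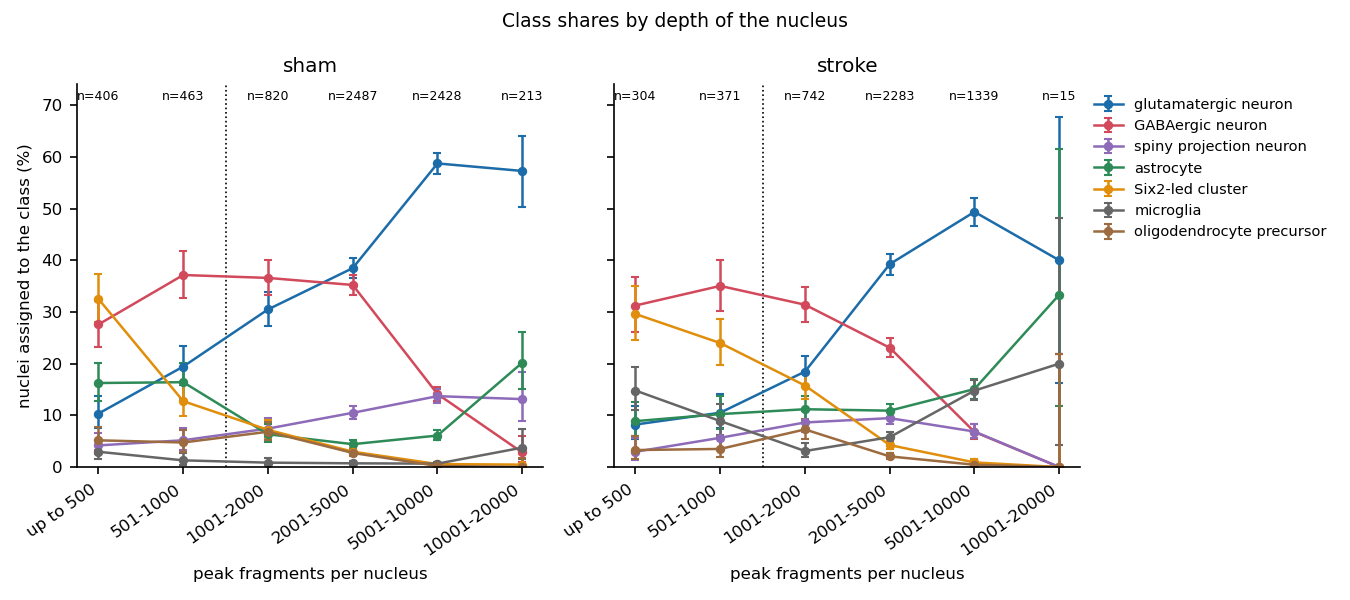
Share of nuclei assigned to each class (%) against fragments in peaks per nucleus, in bins, for the sham and stroke libraries, with exact binomial 95% intervals. From the bin up to 500 to the bin of over 5000 to 10000, the glutamatergic-like share goes from 10.3% to 58.7% in sham and the Six2-led share from 32.5% to 0.577%.

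The plot of class shares by depth shows how the class shares differed between depths. In sham the glutamatergic-like share was 10.3% up to 500 fragments in peaks, 19.4% over 500 to 1000, 30.5% over 1000 to 2000 and 58.7% over 5000 to 10000. In stroke it was 8.22%, 10.5%, 18.5% and 49.4% over the same bins. The Six2-led share went the other way, 32.5%, 12.7%, 7.20% and 0.577% in sham and 29.6%, 24.0%, 15.8% and 0.896% in stroke. The GABAergic-like share was 27.6%, 37.1%, 36.6% and 14.1% in sham and 31.3%, 35.04%, 31.4% and 6.80% in stroke, so of these bins it was lowest over 5000 to 10000 in both. Over 2000 to 5000 it was 35.2% in sham and 23.1% in stroke. Deep nuclei carry their cluster here and shallow nuclei their assignment. For these 3 classes, shares differed between depth bins above the limit in both libraries. Below it, the intervals up to 500 and over 500 to 1000 were apart in sham but overlapped in stroke. At the limit the method changes from assignment to cluster, and some shares differed between the bins beside it. The astrocyte-like share of sham was 16.3% up to 500, 16.4% over 500 to 1000 and 6.34% (4.77% to 8.23%) over 1000 to 2000. The microglia-like share of stroke was 8.89% over 500 to 1000 and 3.10% (1.97% to 4.61%) over 1000 to 2000, and 14.8% over 5000 to 10000.

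Counted from the side of the class, the depth limit took very unequal shares. Of the Six2-led nuclei above 20%, 191 of 339 (56.3%, 50.9% to 61.7%) were shallow in sham and 179 of 405 (44.2%, 39.3% to 49.2%) in stroke. Of glutamatergic-like nuclei 4.57% and 3.63% were shallow, of spiny-projection-like nuclei 5.66% and 7.46%, and of GABAergic-like nuclei 15.7% and 20.9%. The astrocyte-like share was 28.7% (24.7% to 32.9%) in sham and 10.8% (8.40% to 13.5%) in stroke. For microglia-like nuclei it was 26.9%, or 18 of 67, and 17.97%, and for OPC-like nuclei 25% and 17.7%. In the clustering on components 2 to 30, 136 of 208 VLMC-like nuclei (65.4%) of sham and 133 of 270 (49.3%) of stroke were shallow, as were 46.0% and 28.1% of oligodendrocyte-like nuclei. The plot of the shallow share of each class places the Six2-led cluster highest, and among named classes the glutamatergic-like and spiny-projection-like nuclei lowest.

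**Figure D2:**
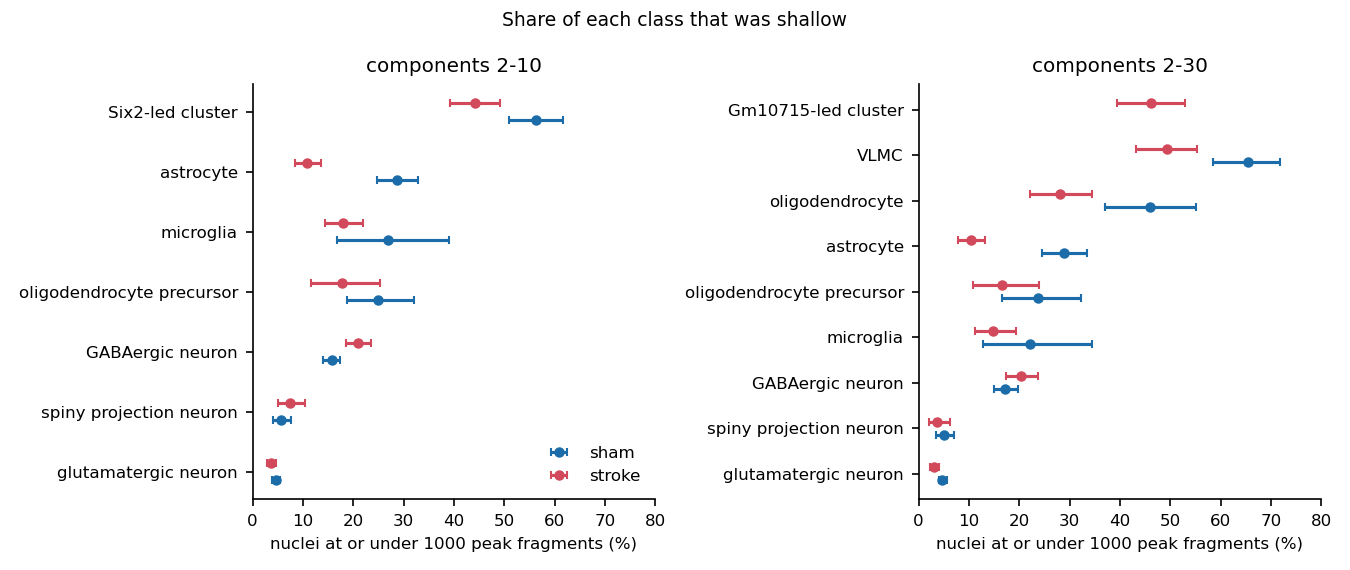
Percentage of each class's nuclei that were at or under 1000 fragments in peaks, in sham and stroke, with exact binomial 95% intervals. The Six2-led cluster is at 56.3% and 44.2%, and glutamatergic-like nuclei are at 4.57% and 3.63%.

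Marker genes were also compared in the pools, without any assignment, and the neuronal lists had the direction of the class shares. The 10 glutamatergic markers summed to 393 CPM in shallow and 612 CPM in deep nuclei of sham, a ratio of 0.641 (0.586 to 0.701), and to 327 and 531 CPM in stroke, a ratio of 0.616 (0.556 to 0.680). Of the 6 members compared in each library, 1 was past 2-fold, Slc17a7 in sham, against 0.453% of all compared genes lower there and 1.1% in stroke. Slc17a7, which loads glutamate into synaptic vesicles, was at 20.5 CPM against 54.5, a ratio of 0.376 (0.245 to 0.552), and at a ratio of 0.570 in stroke. Sv2b, a synaptic vesicle protein, had ratios of 0.565 and 0.520, and Camk2a, a kinase of excitatory synapses, 0.750 and 0.663. The median log2 ratio of the compared members was -0.66 in sham and -0.60 in stroke.

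GABAergic markers lay above 1 and spiny projection markers below 1 in both libraries. The 10 GABAergic markers had ratios of 1.22 (1.08 to 1.38) and 1.32 (1.17 to 1.49), with 8 members above 1 in sham and 10 in stroke. None of the 4 compared was past 2-fold, where 0.997% of all compared genes were higher in sham and 0.648% in stroke. Gad1 and Gad2, which make GABA, had ratios of 0.8995 and 1.03 in sham and 1.412 and 1.25 in stroke, and Sp9, a transcription factor of interneurons, 1.35 and 1.34. Spiny projection markers had ratios of 0.723 (0.672 to 0.778) and 0.743 (0.684 to 0.806). Among them Pde10a, a striatal phosphodiesterase, had 0.711 and 0.595, Rarb, a retinoic acid receptor, 0.691 and 0.877, and Rgs9, a regulator of G protein signalling, 0.668 and 0.824. Ppp1r1b, which encodes the striatal phosphoprotein DARPP-32, was the 1 compared member past 2-fold, in stroke, where 1.1% of all compared genes were lower, at 11.5 CPM against 29.0 (0.395, 0.216 to 0.665). The 12 long synaptic genes, all compared, had ratios of 0.738 (0.720 to 0.756) and 0.821 (0.801 to 0.842). None of the 12 was past 2-fold, where 0.453% of all compared genes were lower in sham and 1.1% in stroke. Rbfox1, a neuronal splicing factor, was at 0.574 and 0.664, Dlg2, a scaffold of the postsynaptic density, at 0.573 and 0.644, and Csmd1 at 0.653 and 0.636.

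VLMC markers had the highest ratio of the 17 cell type lists in both libraries. Their 9 members summed to 96.2 CPM in shallow and 55.9 CPM in deep nuclei of sham (1.72, 1.43 to 2.06), and to 114 and 69.3 CPM in stroke (1.64, 1.38 to 1.95). Members above 1 numbered 8 in sham and 7 in stroke, but most were too low to be compared, 1 being compared in sham and 2 in stroke. Slc6a13, a GABA and taurine transporter of the meninges, was past 2-fold in both, whereas Col1a1, a fibrillar collagen gene, was at 0.544 in sham and 0.894 in stroke. Endothelial markers had ratios of 1.203 (1.09 to 1.33) and 1.27 (1.16 to 1.40). Flt1, a receptor for vascular endothelial growth factor, was at 1.49 and 1.63 and Pecam1, an adhesion molecule of endothelial junctions, at 1.43 and 1.19, but Erg, an endothelial transcription factor, was at 1.02 and 1.03 and Emcn, a surface sialomucin, at 0.586 and 0.853. Slco1a4, an anion transporter of the blood-brain barrier, was past 2-fold in stroke (3.58, 2.43 to 5.12). In sham Slco1a4 had too few fragments to be compared, with a ratio of 4.43. Over promoters alone, the log2 ratio of endothelial markers was 1.32 in sham and 1.28 in stroke, and that of VLMC markers 1.58 in sham. Mural markers had ratios of 1.18 (1.04 to 1.33) and 1.13 (0.994 to 1.28), with 8 of 9 members above 1 in sham and 6 of 9 in stroke. Of the 5 members compared in stroke, 1 was past 2-fold, where 0.648% of all compared genes were higher. This was Abcc9, a subunit of a pericyte potassium channel (2.26, 1.67 to 2.997). In sham none of the 6 compared was past 2-fold. Slco1a4, Abcc9, Ppp1r1b, Slc17a7, Col1a1 and the astrocyte gene Slc1a3 were named after their values were seen.

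Glial lists did not follow the class shares throughout. The astrocyte-like share of sham and the oligodendrocyte-like share of stroke were higher in shallow nuclei, whereas the lists had ratios of 1.04 and 0.949 there. Oligodendrocyte markers had ratios of 1.27 (1.16 to 1.39) in sham and 0.949 (0.854 to 1.05) in stroke, with Mbp, a major myelin protein, at 1.03 and 0.805, Cnp, an enzyme of myelin, at 1.38 and 1.02, and Myrf, the transcription factor of myelin genes, at 1.13 and 0.916. OPC markers had 1.24 and 0.982. Astrocyte markers had 1.04 (0.959 to 1.12) and 0.870 (0.801 to 0.943), the latter turning to a log2 ratio of 0.050 at a minimum of 30% of fragments in peaks, and Slc1a3, a glutamate transporter of astrocytes, was past 2-fold in sham (2.30, 1.77 to 2.95) and at 1.06 in stroke. The other abundant astrocyte genes had ratios of 1.43 and 0.962 for Aldh1l1, a folate enzyme, 0.812 and 0.627 for Slc1a2, a second glutamate transporter, and 0.797 and 0.912 for Slc4a4, a bicarbonate transporter. Microglial markers had 0.953 and 0.888, with a log2 ratio of 0.26 over promoters in stroke, and macrophage markers 1.13 and 1.09. No member of the neuronal, glial or vascular lists was at 0 in either shallow pool.

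Stress and housekeeping lists were compared in the same way. The p53 and apoptosis list had ratios of 1.31 (1.196 to 1.43) and 1.15 (1.04 to 1.26), with 1 of 10 compared members past 2-fold in sham, where 0.997% of all compared genes were higher, and none in stroke (0.648%). This was Gadd45a, a gene induced by DNA damage that was named after its value was seen (2.91, 2.14 to 3.86). Ddit3, a factor of the unfolded protein response, was at 1.40 and 1.101, Gadd45b at 1.30 and 1.05, Bbc3, a promoter of apoptosis, at 1.28 and 0.994, and Mdm2, the ubiquitin ligase of p53, at 1.31 and 1.03. Heat shock genes were at 1.19 and 1.08, immediate early genes at 1.11 and 1.12, housekeeping genes at 1.07 and 1.13, and ribosomal protein genes at 1.03 and 0.925.

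Vomeronasal and olfactory receptor genes, whose products serve smell and which most brain cells keep closed, were compared as lists, although some were leading genes of neuronal clusters. The 330 vomeronasal receptor genes summed to 402 CPM in shallow and 209 CPM in deep nuclei of sham (1.92, 1.76 to 2.099), and to 624 and 355 CPM in stroke (1.75, 1.63 to 1.89). Barcodes that were not called as cells had 397 and 906 CPM. The 1134 olfactory receptor genes were at 974 against 705 CPM (1.38, 1.30 to 1.46) and 1446 against 977 CPM (1.48, 1.411 to 1.55), and at 1052 and 2112 CPM in barcodes that were not called. By both lists, shallow nuclei of stroke thus lay between deep nuclei and uncalled barcodes, with ratios over uncalled barcodes of 0.688 (0.628 to 0.753) and 0.685 (0.645 to 0.726). In sham they were not separated from uncalled barcodes, at 1.01 (0.887 to 1.16) and 0.926 (0.852 to 1.01). The part of free DNA in the other ratios was not tested. Against uncalled barcodes, the glutamatergic list of shallow nuclei was at 0.738 (0.652 to 0.835) in sham and 0.767 (0.675 to 0.872) in stroke, and the GABAergic list at 1.18 (0.973 to 1.43) and 1.79 (1.48 to 2.17). The VLMC list was at 1.97 (1.403 to 2.80) and 1.37 (1.07 to 1.77). Endothelial markers were at the level of uncalled barcodes, 1.08 (0.926 to 1.26) and 1.02 (0.899 to 1.16).

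**Figure D3:**
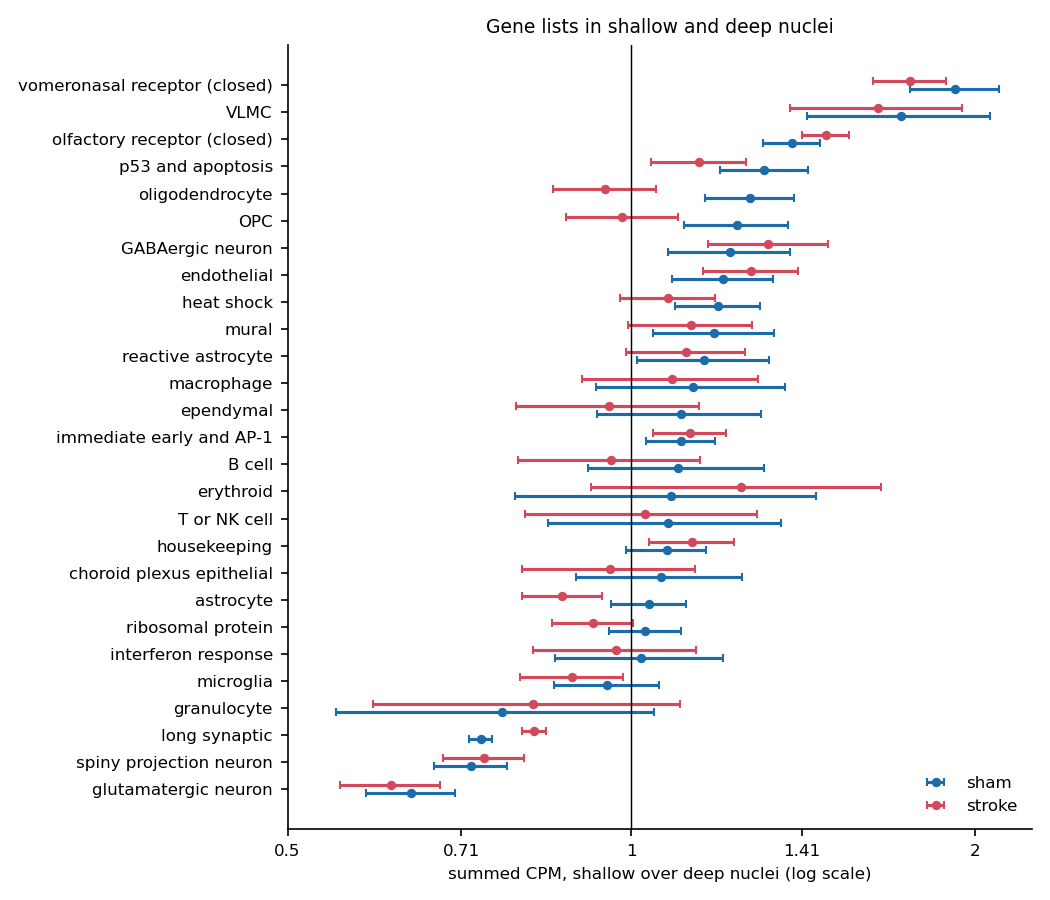
Ratio of the summed CPM of each gene list in shallow over deep nuclei, on a log scale, for sham and stroke, with exact 95% intervals and a line at equal levels. VLMC, vomeronasal and olfactory lists lie to the right in both libraries, and glutamatergic, spiny projection and long synaptic lists lie to the left.

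Of the 13 genes at least 2-fold higher in both libraries, the 10 with the largest ratios are described here. All of them but Mroh2a and Gm10801 were below the minimum of 15.8 CPM in deep nuclei of sham. In stroke Slc6a13, Epha2, Kcnk5 and Gm21738 were below the minimum of 16.4 CPM in deep nuclei. Such genes were compared only because their level in shallow nuclei was high, so their ratios depend in part on this minimum. Slc6a13 (chr6:121300227-121337733) was at 25.2 CPM in shallow and 9.17 CPM in deep nuclei of sham (2.75, 1.87 to 3.92) and at 32.8 and 12.03 CPM in stroke (2.73, 1.93 to 3.75). Its 32 and 40 fragments came from 22 of 869 nuclei (2.53%) and 34 of 675 nuclei (5.04%), and its level in uncalled barcodes was 11.96 and 14.6 CPM. Itih5, a hyaluronan-binding protein of the extracellular matrix, was at 40.2 against 15.3 CPM (2.63, 1.95 to 3.49) and 52.4 against 22.5 CPM (2.33, 1.79 to 3.004). Kcnk5, a background potassium channel of epithelia, was at 34.7 against 11.6 CPM (3.003, 2.17 to 4.07) and 32.8 against 16.1 CPM (2.04, 1.45 to 2.80). The ratios of Car8, a carbonic anhydrase-related protein, were 2.32 and 2.18, and those of Mroh2a 2.63 and 2.27.

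Epha2, a receptor tyrosine kinase for ephrins, had ratios of 2.42 and 2.21, but 1 nucleus gave 23 of its 38 shallow fragments in sham (60.5%), and without that nucleus the sham ratio was 0.957. Leaving out, for each gene, the nucleus with most fragments took Skint5 in sham to 1.92, and in stroke Kcnk5 to 1.79 and Car8 just under 2-fold. Slc6a13 kept 2.33 and 2.53 without that nucleus, Itih5 2.43 and 2.12, and Mroh2a 2.47 and 2.16. Over all genes called higher, 67 of 121 in sham and 38 of 76 in stroke stayed past 2-fold, and 1 nucleus gave a median of 7.89% and 11.2% of a gene's fragments. Tfap2d in sham, with 22 of 36 fragments from 1 nucleus, went from 3.52 to 1.37, and Slc6a5 in stroke, with 38 of 74, from 2.34 to 1.14. These 2, a transcription factor and a glycine transporter gene, were named after their values were seen, and with Epha2 they were the genes for which 1 nucleus gave more than 50% of the fragments.

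The predicted genes Gm10801 and Gm21738 had larger ratios in stroke. Gm10801 (chr2:98662237-98664083) was at 99.4 against 47.1 CPM in sham (2.11, 1.75 to 2.52) and 308.1 against 75.8 CPM in stroke (4.06, 3.65 to 4.52). Gm21738 on chromosome 14 was at 26.03 against 10.3 CPM (2.53, 1.73 to 3.58) and 99.96 against 16.3 CPM (6.12, 5.02 to 7.41). Gm10800 (chr2:98666547-98667301, minus strand), beside the Gm10800 window printed above and named after its values were seen, was at 304 against 169 CPM (1.80, 1.63 to 2.00) and 1109 against 272 CPM (4.08, 3.86 to 4.32). These genes lie in repeated sequence, where reads from near-identical copies cannot be placed with certainty, so their levels are uncertain. In uncalled barcodes Gm10801 was at 150 and 343 CPM, Gm21738 at 43.9 and 86.3 CPM and Gm10800 at 564 and 1186 CPM, above the shallow nuclei in each case but Gm21738 in stroke. In stroke 287 of 675 shallow nuclei (42.5%) had a Gm10800 fragment, and 1 nucleus held 285 of the 1353, without which the ratio was 3.23. Skint6 and Skint5, immunoglobulin-family genes of skin and thymus, were at 29.2 against 10.2 CPM (2.87) and 26.03 against 9.88 CPM (2.63) in sham and at 65.5 against 25.1 CPM (2.61) and 63.1 against 26.5 CPM (2.38) in stroke. Skint6 was at 17.9 and 90.5 CPM in uncalled barcodes, below the shallow nuclei in sham and above them in stroke, and Skint5 at 32.9 and 87.0 CPM, above them in both.

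Of the 10 named lower genes, 3 were past 2-fold in both libraries. Mpped1, a brain phosphoesterase (chr15:83779467-83858494), was at 52.8 against 119.5 CPM in sham (0.442, 0.342 to 0.562) and 49.98 against 103.4 CPM in stroke (0.484, 0.369 to 0.622). Elmod1, a GTPase-activating protein that speeds GTP hydrolysis by small GTPases, was at 27.6 against 59.6 CPM (0.463, 0.322 to 0.645) and 22.1 against 51.4 CPM (0.431, 0.283 to 0.628). Piwil1, a germline protein that binds piRNAs, had ratios of 0.470 and 0.498. The other 7 were past 2-fold in 1 library at most. Cplx2, a complexin of the synaptic vesicle machinery, had 0.466 and 0.528, and Kcng3, a potassium channel subunit, 0.315 and 0.513. Gtf2h1, a subunit of the transcription factor TFIIH, had 0.383 and 0.509, Dmc1, a meiotic recombinase, 0.396 and 0.514, and Arih2, a ubiquitin ligase, 0.514 and 0.494. Exph5, a Rab27 effector, had 0.519 and 0.467, and Diablo, a mitochondrial antagonist of apoptosis inhibitors, 0.532 and 0.481.

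**Figure D4:**
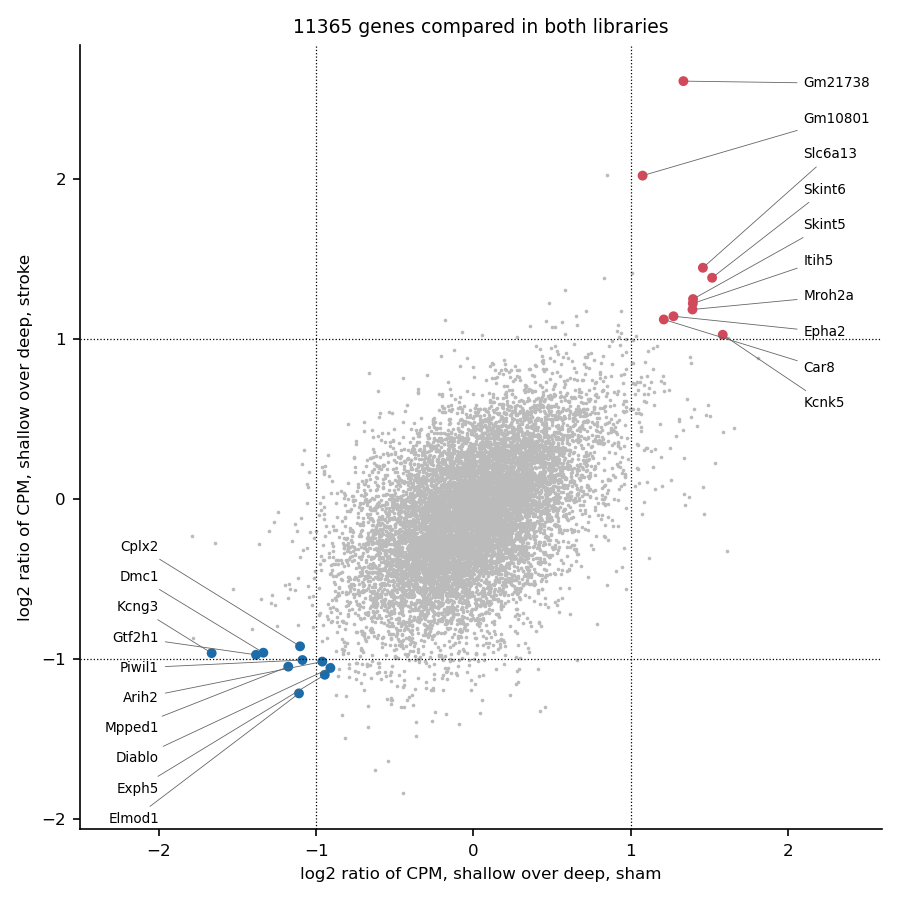
Log2 CPM ratio of shallow over deep nuclei in stroke against the same in sham, for genes compared in both libraries, with the 20 named genes labelled. The 10 higher genes lie past 2-fold on both axes, and Gm21738 and Gm10801 lie farther out in stroke (6.12 and 4.06) than in sham (2.53 and 2.11).

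Depth bins showed where each gene parted from deep nuclei. Slc6a13 was at 61.5 CPM up to 500 fragments in peaks, 14.4 CPM over 500 to 1000, and 9.96, 10.7, 8.07 and 10.1 CPM in the next 4 bins of sham. In stroke its levels were 48.3, 27.5, 20.6, 12.6, 10.3 and 4.65 CPM. Its excess in sham thus lay in the nuclei up to 500, whereas in stroke its level was lower in each deeper bin. Gm10801 was at 129.8, 90.2, 87.4, 78.8, 26.6 and 31.3 CPM in sham and at 518, 236, 153, 83.6, 56.7 and 44.2 CPM in stroke. Mpped1 ran the other way, at 40.98, 56.4, 93.1, 115, 126 and 111 CPM in sham and 29.0, 57.2, 68.4, 108, 103 and 105 CPM in stroke. The glutamatergic list was lowest up to 500, at 293.7 CPM in sham and 270.3 CPM in stroke, and reached 659.6 and 577 CPM over 5000 to 10000. The GABAergic list was at 194.6 CPM up to 500 and 219 CPM over 500 to 1000 in sham, and at 148 and 256 CPM in stroke. The VLMC list went from 157 CPM up to 500 to 77.9 CPM over 500 to 1000 in sham and was at 113 and 114 CPM in stroke.

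**Figure D5:**
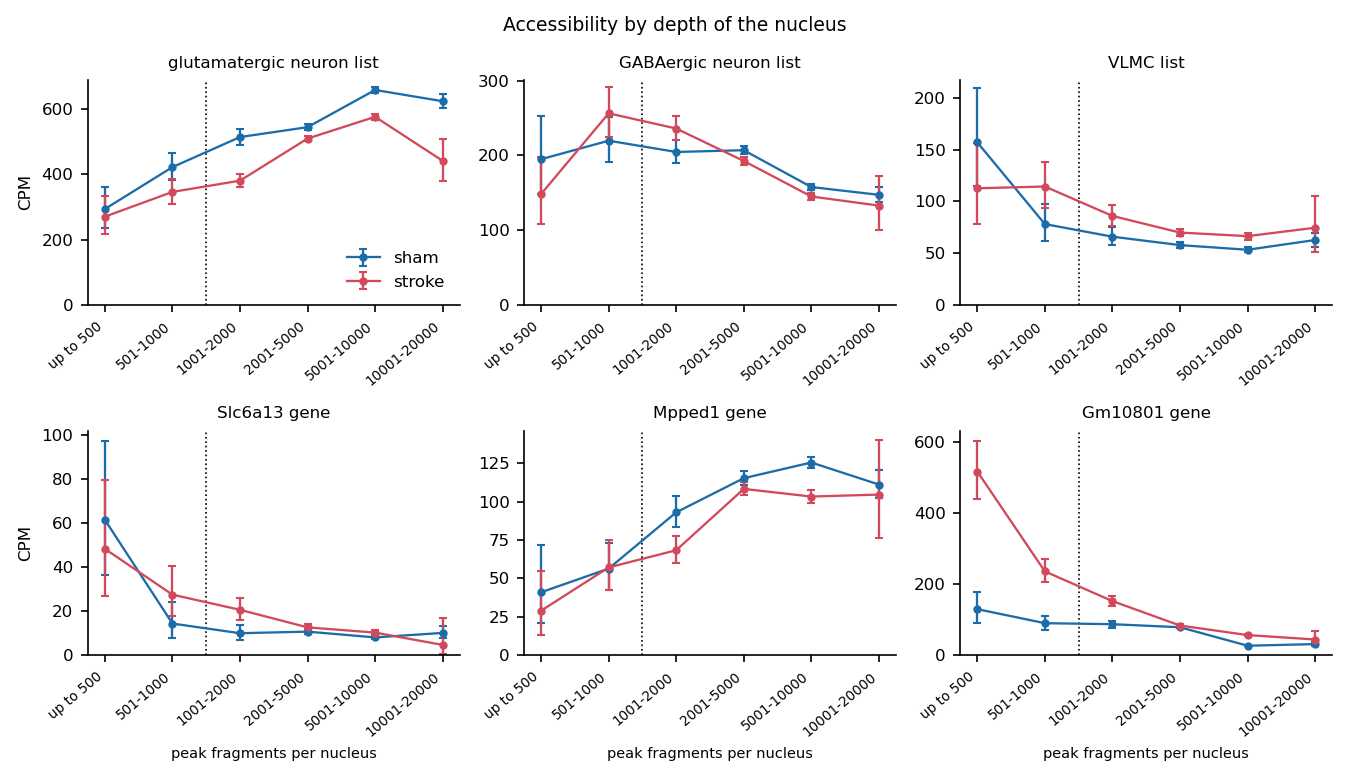
CPM of Slc6a13, Gm10801, Mpped1 and the glutamatergic, GABAergic and VLMC lists against fragments in peaks per nucleus, in bins, for sham and stroke. Slc6a13 goes from 61.5 to 14.4 CPM across the first 2 bins of sham, and Mpped1 reaches 126 CPM in the bin of over 5000 to 10000.

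Within an assigned class, shallow nuclei mostly carried their own markers at the level of deep nuclei. Assignment used the same fragments, so these levels are descriptive. GABAergic markers were at 342 CPM in shallow and 330 CPM in deep GABAergic-like nuclei of sham (1.04), and at 355 and 375 CPM in stroke (0.948), against 124 and 157 CPM in all other shallow nuclei. Glutamatergic markers were at 870 and 841 CPM (1.03) and at 717 and 781 CPM (0.918) in their own class. Astrocyte markers were at 1571 and 1508 CPM (1.04) in sham and at 1382 and 1684 CPM in stroke (0.820, 0.680 to 0.981). Spiny projection markers were lower in shallow nuclei of their class, with ratios of 0.586 (0.467 to 0.726) and 0.675 (0.527 to 0.851). In the Six2-led cluster the oligodendrocyte list was at 885 against 616 CPM in sham (1.44, 1.203 to 1.71) and 499 against 641 CPM in stroke (0.779, 0.647 to 0.932). Its endothelial list had ratios of 1.48 (1.21 to 1.79) and 1.22 (1.01 to 1.46).

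Slc6a13 fragments came mainly from Six2-led nuclei, which held 20 of the 32 shallow fragments in sham and 26 of 40 in stroke. Slc6a13 was there at 106 CPM (64.7 to 164) in shallow and 49.7 CPM in deep nuclei of sham, and at 93.4 and 77.1 CPM in stroke. In GABAergic-like nuclei of sham Slc6a13 was at 19.2 and 11.97 CPM. Itih5 was at 106 and 63.1 CPM in Six2-led nuclei of sham and at 104 and 86.1 CPM in stroke. Kcnk5 was at 68.9 and 58.0 CPM there in sham and at 68.3 and 73.6 CPM in stroke. Mpped1 was lower in shallow nuclei also within classes, at 83.3 against 153 CPM in glutamatergic-like nuclei of sham and at 53.8 against 90.0 CPM in GABAergic-like nuclei, and at 63.7 against 101 CPM in GABAergic-like nuclei of stroke.

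Gm10800 was spread unevenly over stroke shallow nuclei. It had 744 of its 1353 shallow fragments in the 64 nuclei assigned to glutamatergic clusters, 5798 CPM against 262 CPM in deep nuclei of the class. One of the clusters named glutamatergic-like was led by the predicted gene Gm10715, and its part in these levels was not tested. With components 2 to 30 the Gm10715-led nuclei formed a cluster of their own, with 103 shallow nuclei in stroke (15.3%, 12.6% to 18.2%, against 1.74% of thinned deep nuclei) and 5 in sham (0.575%). Its shallow stroke nuclei had Gm10800 at 4707 CPM against 1225 CPM and Gm10801 at 1309 against 321 CPM in deep nuclei. Their median share of low-quality read pairs was 11.5%, against 8.84% in deep nuclei of the cluster, and 23.1% of their fragments were in peaks against 25.5%. The glutamatergic-like share of stroke shallow nuclei was 6.37% in that clustering, against 34.6% of thinned deep nuclei.

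With the deep nuclei weighted to the class makeup of the shallow nuclei, an alternative added after seeing the data, fewer genes were past 2-fold. In sham 21 genes were higher and 34 lower, of which 15 and 25 were among those called in the unweighted comparison, and in stroke 33 and 80, of which 30 and 53. The glutamatergic ratio moved from 0.641 to 0.925 (0.845 to 1.01) in sham and from 0.616 to 0.946 in stroke, and the GABAergic ratio from 1.22 to 1.01 and from 1.32 to 1.002. The VLMC ratio moved to 1.21 (1.003 to 1.44) and 1.02. The vomeronasal ratio remained at 1.69 and 1.55 and the olfactory ratio at 1.36 and 1.45. Among named genes Slc6a13 went to 1.59 (1.09 to 2.24) and 1.26, Itih5 to 1.48 and 1.36 and Kcnk5 to 1.64 and 1.09. Gm21738 was at 2.34 and 5.71 and Skint6 at 2.27 and 2.16, past 2-fold in both. Gm10801, at 1.82 and 3.65, was under 2-fold in sham, and Mroh2a, at 2.13 and 1.98, in stroke. On the lower side Mpped1 went to 0.565 and 0.662, Piwil1 to 0.612 and 0.605 and Elmod1 to 0.597 and 0.552, while Gtf2h1 was at 0.429 and 0.504 and Diablo at 0.544 and 0.470. With class makeup taken from components 2 to 30, where the Gm10715-led nuclei have a cluster of their own, the repeat genes moved more in stroke, Gm21738 to 3.40 and Gm10801 to 2.65, and the vomeronasal list to 1.37. In sham they were then at 2.31, 1.76 and 1.67. Slc6a13 was at 1.35 and 1.15 in that fit, Mpped1 at 0.544 and 0.648 and Elmod1 at 0.588 and 0.572. Skint6 was then under 2-fold in both libraries, at 1.88 and 1.98. Mroh2a was at 2.07 and 1.70 and Skint5 at 2.04 and 1.60.

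Windows of 300 bases along the genome, inside and outside genes, were compared by their cut sites, scaled like CPM to all cut sites of the pool, with the same minimum of 20. In sham 5841 windows were compared, of which 258 were at least 2-fold higher in shallow nuclei (4.42%) and 54 lower (0.924%). In stroke 4244 were compared, of which 140 were higher (3.3%) and 22 lower (0.518%). Of 3958 windows compared in both libraries, 21 were higher in both, 19.3% of 109 in sham and 28.0% of 75 in stroke, and 2 were lower in both. The median log2 ratio of all windows was 0.21 in sham and 0.19 in stroke. The minimum applied to the mean of both pools, so a window low in deep nuclei was compared only where shallow nuclei were high. The printed Zbtb7b, Stk3 and Clic4 windows in both libraries, and the printed Gm10800 window in sham, entered in this way. The ratios of such windows, and the median over all windows, depend in part on this minimum.

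The windows described here were chosen after their values were seen. The 12-base run ACACTGAAAAAC, or GTTTTTCAGTGT on the other strand, was the 12-base run found in the largest number of the 21 windows, so its count among them is a description. It stood in 6 of the 3958 windows (0.152%), all among the 21, with ratios of 2.00 to 4.58 in sham and 2.58 to 4.81 in stroke and a median GC content of 33.7% against 64.7% for all windows. Of the windows printed above, the Gm10800 window, which overlaps no protein-coding gene and lies 1050 bases downstream of that gene's start, had ratios of 3.795 (2.83 to 5.00) and 4.81 (4.02 to 5.72). The Pak3 window, at position -35640 from the start of that kinase gene, had 3.41 and 3.93, and the Chl1 window, in an intron of the gene for a neural adhesion molecule, 4.58 and 2.58. The printed windows with the run share near-identical stretches beyond its 12 bases. Reads from other copies may therefore be placed there, so their levels are uncertain and are not tied to Pak3 or Chl1. The GC box stood in 3040 of the 3958 windows (76.8%), in 12 of the 21, and in 12 of the 15 without the run (80%), which is near the share of all windows. The Zbtb7b window, which overlaps an exon and lies at -172 from a start of that transcription factor gene, had ratios of 2.598 and 2.26 and holds 1 GC box. The Stk3 window, at the start of a Hippo pathway kinase gene, had 2.69 and 2.19 and holds 6 GC boxes, and the Clic4 window, at -336 from the start of a chloride channel gene, had 3.97 and 2.15 and holds 2. The 2 windows lower in both lie at chr19:61266901-61267200, with ratios of 0.464 and 0.268, and at the start of the zinc finger gene Zfand2a, chr5:139484401-139484700, with 0.486 and 0.416.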

How the data were processed

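Nuclei of 1 sham and 1 stroke library, each of 4 pooled mice, were measured by scATAC-seq at 48 h. The submitters' processing notes name Cell Ranger ATAC 2.1.0, Cell Ranger ARC and mm10. The authors deposited, per library, fragment coordinates after removal of duplicates, with the read count behind each fragment, and for every barcode unnormalized counts of its read pairs and fragments, with the cell call. The libraries held 76959104 and 96465679 fragments.

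The members, gene lists and tests were chosen with earlier results of these data known. No doublets were removed, since the study's methods give a doublet step for scRNA-seq alone. Fragments over 21911 protein-coding genes of GENCODE M21 (body and 2 kb upstream) were pooled, and ratios of CPM were given exact conditional binomial intervals at 95%. With 1 library per condition no test was made, and a gene was called at a 2-fold ratio. Named genes are the 10 higher and 10 lower genes ranked by the smaller of the libraries' log2 ratios, and the 2 to 4 listed genes with most fragments in each list described. Any others are marked as chosen after their values were seen.

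Deep nuclei were clustered on 60000 tiles of 5 kb (TF-IDF, SVD components 2 to 10, Seurat 5.3.0, algorithm 3, resolution 1.2, R 4.3.3). A cluster was named with at least 3 markers at 1.5-fold and 10 fragments and a margin of 0.1 over the next class, a margin set after the clusters were seen. The 17 marker lists were among 27 gene lists. Profiles of a random part of the deep nuclei, smoothed with 200000 fragments, gave each nucleus its cluster by multinomial likelihood. Calculations used Python 3.11.15, numpy 2.4.6, scipy 1.17.1 and pandas 2.3.3 and were tested on simulated data. Alternatives were promoters only, other minimums, limits and scaling, thinned depth, other resolutions and components, matched class makeup, and single nuclei or the nuclei of a repeat-led cluster left out, the last 3 chosen after seeing the data.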

Additional observations from a re-analysis of the deposited data

Results flagged for a closer look

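The astrocyte-like share of shallow nuclei differed from that of thinned deep nuclei in opposite directions in the libraries. It was 9.53 percentage points higher in sham and -3.01 points, that is lower, in stroke. With a minimum of 30% of fragments in peaks, the stroke shares were 16.0% in shallow and 16.3% in thinned deep nuclei, and the sham shares 21.2% and 7.87%. Shallow astrocyte-like nuclei had a median of 57.1% of fragments in peaks in sham, against 51.4% in deep ones, and 47.7% against 50.2% in stroke. The difference between libraries was not tested, since each condition had 1 library.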

How the results depend on the processing

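No paired analysis was possible because sham and stroke were 1 library each. Requiring 30% of fragments in peaks left 647 sham and 306 stroke shallow nuclei, and a limit of 500 fragments in peaks left 406 and 304. Genes past 2-fold, as higher and lower, were 45 and 15 in sham and 18 and 5 in stroke over promoters, 274 and 167, 184 and 293 with a minimum of 10 fragments, and 21 and 5, 19 and 20 with a minimum of 50. At equal numbers of fragments per nucleus they were 32 and 28, 40 and 58. Matched to class makeup they were 21 and 34, 33 and 80, and with components 2 to 30 21 and 28, 23 and 48. Without the nucleus giving most fragments, 67 and 38 stayed higher. In sham, scaling to promoter fragments gave 96 lower genes, and deep nuclei limited to 5000 fragments in peaks gave 78 higher ones.

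Log2 list ratios over promoters were -0.88 and -0.98 for glutamatergic markers, 1.32 and 1.28 for endothelial markers and 1.58 for VLMC markers in sham. The glutamatergic value was -0.46 in sham with deep nuclei up to 5000. At 30% of fragments in peaks, stroke gave -1.04 for glutamatergic, 0.58 for endothelial and 1.27 for VLMC markers, and at equal fragments per nucleus 0.43 for VLMC markers. GABAergic-like shares were 24.7% (21.4% to 28.2%) against 20.3% (18.8% to 21.98%) of thinned deep nuclei in sham, with overlapping intervals, and 25.8% against 15.1% in stroke at 30% in peaks. They were 20.02% against 12.7% and 19.3% against 10.5% with components 2 to 30, and 28.7% against 19.2% in stroke at resolution 0.8. The Six2-led share was 39.5% in stroke at 30%, and the glutamatergic-like share 6.37% in stroke with components 2 to 30.

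2 results reversed: the microglial list of stroke was at 0.26 over promoters against -0.17, and the astrocyte list of stroke at 0.050 at 30% against -0.20. The causes were not tested. Resolution 0.8 and components 2 to 30 gave no unnamed Six2-led cluster, so that share has no value there. At resolution 0.8 a cluster of 802 deep nuclei scored 1.12 for microglial and 0.895 for oligodendrocyte markers. It held 23.6% and 42.7% of shallow nuclei, against 2.07% and 11.6% for the microglia-like class in the report. The 2 are unlike sets, since that cluster had 198 deep nuclei in sham and 604 in stroke. The microglia-like class had 49 and 356, and the Six2-led cluster 148 and 226. Whether that cluster joins the nuclei of both was not tested. Requiring a TSS enrichment over 2 or a posterior of at least 0.9, or leaving out barcodes called in both libraries, moved no value recomputed that way by more than its counting error or, for counts, by 1.5 times, although the microglia-like intervals of stroke, 8.64% to 13.7% and 6.46% to 8.80%, overlapped at 0.9. Without the Gm10715-led nuclei the counts were 119 and 52 in sham and 70 and 111 in stroke.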

Other observations

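Marker lists of cell types other than those described above had ratios of shallow to deep nuclei that lay closer to 1 or rested on few fragments. Granulocyte markers, with 3 of 10 members at 0 in the sham shallow pool and 2 in stroke, had ratios of 0.771 and 0.819. T or NK cell markers were at 1.08 and 1.03 and B cell markers at 1.099 and 0.960, with Blnk, a B cell adaptor, past 2-fold in stroke at 15.6 against 33.0 CPM (0.472). Ependymal markers were at 1.11 and 0.957, choroid plexus markers at 1.06 and 0.959, and erythroid markers at 1.08 and 1.25. The reactive astrocyte list was at 1.16 and 1.12, with none of 4 members compared in sham and 7 in stroke past 2-fold. The interferon list was at 1.02 and 0.969, with 1 of 2 compared members past 2-fold in sham, Ifit2 (2.21), and 1 of 3 in stroke, Usp18 (2.21). Of all compared genes, 0.997% were higher and 0.453% lower in sham, and 0.648% and 1.1% in stroke. Sall1, a transcription factor of microglia, was past 2-fold in sham (2.55), as 1 of 5 compared microglial markers. That list was at 0.953 in sham, with 5 of its 11 members above 1. In stroke none of its 5 compared members was past 2-fold, and 2 of 11 members were above 1. Blnk, Ifit2, Usp18 and Sall1 were named after their values were seen.

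Calls were also counted by gene length. Among genes longer than 100 kb, 1 of 2403 in sham and 6 of 2441 in stroke were at least 2-fold lower in shallow nuclei, while 19 and 24 were higher. Among genes of 10 to 100 kb, 46 of 7752 and 107 of 7600 were lower and 80 and 44 higher, and among shorter genes 8 of 1978 and 16 of 1686 were lower and 22 and 8 higher.

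Within a class fewer genes could be compared. Of 6155 genes in GABAergic-like nuclei of sham, 21 were at least 2-fold higher and 26 lower in shallow nuclei, and of 4348 in stroke, 32 and 62. Of 1354 genes in Six2-led nuclei of sham, 50 were higher and 39 lower, and of 2389 in stroke, 37 and 25.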
